A study of Mus musculus with 9 samples.

Results

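The tumour necrosis factor (TNF) superfamily was examined in the cord of mice with a complete transection of the spinal cord at T9. Its members were chosen by gene symbol: every symbol beginning Tnfsf or Tnfrsf and a digit with 1 receptor left out, plus Tnf, Lta, Ltb, Ltbr, Fas, Fasl, Cd40, Cd40lg, Cd27 and Cd70. These were 41 of the 34745 genes in the deposited table, namely 17 ligands, 23 receptors and the antisense RNA Tnfsf13os. The 3 groups of 3 libraries each were spinal cord at day 0, at day 3 and at day 21 of the injury. The day 0 libraries are titled N, which is not explained, and were taken as day 0 because the other 2 groups carry their day. Whether their cords were unoperated, sham operated or taken right after the injury is not stated, and each comparison with day 0 is limited by that. The labels state no strain, sex or age and no length of cord. They also do not say whether each library is a different animal, and so the p-values refer to the variation among libraries, part or all of which may be technical.

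TNF superfamily ligands are mostly made as membrane proteins that act as trimers, and some are cut off the cell surface by proteases of the ADAM family. Most of their receptors have either a death domain, through which they can recruit caspase 8, or motifs that bind TRAF adaptors and switch on NF-kB and MAP kinases. Decoy receptors bind ligand without a full signalling domain. In the injured cord the family is known for roles in inflammation, in the death of neurons and oligodendrocytes and in limiting axon growth, and many of its members are co-stimulatory molecules of lymphocytes.

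Total gene counts were 14299679 to 24022923 per library, and markers of neurons (10 genes), astrocytes (8) and oligodendrocytes (8) had counts in all 3 groups. Day 21 replicate 2 stood apart, with log2 CPM correlations of 0.943 and 0.935 to the other day 21 libraries, which correlated with each other at 0.987. Levels are given as FPKM, counts scaled by gene length and library total, which can be compared between genes. Group values are mean ± SD with n = 3, and p-values are from edgeR's quasi-likelihood test on the counts, adjusted by Benjamini-Hochberg over the 16494 genes tested and called under 0.05, two-sided. A range beside a value from an alternative fit is that of its adjusted p over those of the 15 alternatives that tested the gene. Of the 41 members, 30 had enough counts to be tested, 9 ligands, 20 receptors and Tnfsf13os. No day 0 library reached the filter's level of 0.634 CPM for 8 of them: Ltb, Tnf, Tnfrsf9, Tnfrsf14, Tnfrsf26, Tnfsf8, Tnfsf11 and Tnfsf13. These passed only through the injured groups, Tnfrsf9 through day 3 alone. The counts of calls below therefore describe the 30 tested members, not the whole family, and are no support for a direction of it.

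Most of the tested members were higher at day 3 than at day 0. At day 3, 21 of the 30 tested members were higher than at day 0, 3 were lower and 6 were not called. Over all genes tested 44.3% were called in that comparison, 24.8% higher and 19.5% lower. At day 21, 15 were higher than at day 0, 2 were lower and 13 were not called, where 29.2% of all genes were called, 17.9% higher and 11.3% lower. Between the injured times 3 members were higher at day 21 than at day 3, 14 were lower and 13 were not called, where 27.8% of all genes were called, 11.7% higher and 16.1% lower. The members' median log2 fold change was 1.79 for day 3 against day 0, 0.94 for day 21 against day 0 and -0.71 for day 21 against day 3, and the medians of all genes tested were 0.00807, 0.0184 and 0.0161. With Tnfsf11 and Tnfrsf26 set to the lower bounds given below, the medians against day 0 were also 1.79 and 0.94. They could not change, since these bounds lie above the medians. Of the 22 members with at least 1 day 0 library at the filter's level, 14 were higher and 3 lower at day 3 and 8 higher and 2 lower at day 21, with medians of 1.46 and 0.69. Without the filter 40 members were tested, and 22 were higher and 3 lower at day 3 and 16 higher and 2 lower at day 21. Of the 23736 genes in that fit, 3786 were higher and 3672 lower at day 3, and 2690 higher and 2067 lower at day 21. Without day 21 replicate 2 no member's call was lost, and the counts were 21 higher and 4 lower, 15 higher and 2 lower, and 5 higher and 16 lower in the same order of comparisons. In that fit 32% of all genes were higher and 29.2% lower at day 3, 25.1% and 22.4% at day 21 against day 0, and 23.5% and 25.7% at day 21 against day 3.

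The summed level of all 41 members was 105, 97.9 and 99.6 FPKM at day 0, 196, 198 and 198 FPKM at day 3, and 122, 142 and 121 FPKM at day 21. The 3 groups did not overlap in this sum. Its make-up also differed, since at day 0 the death receptor Tnfrsf21 alone held 47.2% of it, at day 3 Tnfrsf12a came first with 28.7%, and at day 21 Tnfrsf21 was first again with 25.6%. Ligands held 13.3% of the sum at day 0, 18.2% at day 3 and 19.8% at day 21. Members with a mean of at least 1 FPKM numbered 8 at day 0, 17 at day 3 and 14 at day 21.

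Markers of other cells moved at the same times. The 10 monocyte and macrophage markers summed to 19.1 to 22.0 FPKM at day 0, 596 to 608 at day 3 and 367 to 581 at day 21, where replicate 2 was highest, and all 10 were called higher at day 3. Most of that sum was Lyz2, which averaged 15.7 FPKM at day 0, 469 at day 3 and 416 at day 21. Of the 10, 6 were called lower and 0 higher at day 21 than at day 3. The 10 microglial markers summed to 96.3 to 119 FPKM at day 0, 371 to 383 at day 3 and 337 to 423 at day 21, with 8 called higher at day 3. The 8 fibroblast and meningeal markers summed to 47.1 to 48.7 FPKM at day 0, 574 to 576 at day 3 and 291 to 365 at day 21, and all 8 were called higher at day 3. The 8 endothelial markers summed to 63.5 to 75.1 FPKM at day 0, 185 to 194 at day 3 and 65 to 85 at day 21, with 6 called higher at day 3 and 7 called lower at day 21 than at day 3. The 8 Schwann cell markers summed to 440 to 453 FPKM at day 0, 830 to 853 at day 3 and 496 to 607 at day 21, with 6 called higher and 1 lower at day 3 than at day 0 and 7 lower at day 21 than at day 3. The 8 astrocyte markers summed to 1250 to 1290 FPKM at day 0, 2640 to 2690 at day 3 and 2310 to 2650 at day 21, with 4 called higher and 3 lower at day 3. Gfap alone averaged 553 FPKM at day 0, 2010 at day 3 and 1690 at day 21 and carried the rise of this sum. The 3 lower markers were Slc1a2, Slc1a3 and Aldoc. The 10 neutrophil markers summed to 7.73 to 12.6 FPKM at day 0, 35.5 to 43.1 at day 3 and 37.3 to 85.8 at day 21. The 8 skeletal muscle markers summed to 14.8 to 19.0 FPKM at day 0, 7.78 to 8.06 at day 3 and 112 to 195 at day 21, and day 21 replicate 2 was the highest library for the neutrophil and muscle lists. None of these markers was at 0 in any group. In bulk tissue more cells of a type and more RNA per cell cannot be told apart, and the part of these cells in the members' values was not tested.

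**Figure D1:**
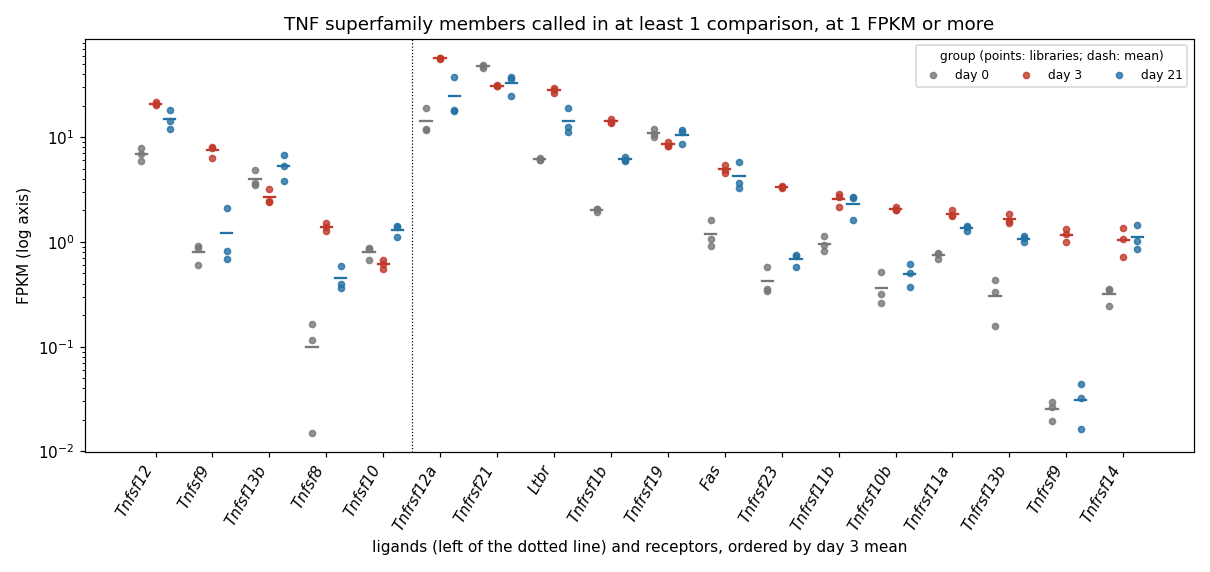
FPKM (log axis) of the 18 members called in at least 1 comparison with a group mean of at least 1 FPKM, ligands left and receptors right of the dotted line, with 1 point per library, a dash at the group mean and the groups day 0, day 3 and day 21 in that order. Day 3 lies above day 0 for most of them, while Tnfrsf21 is highest at day 0 and Tnfsf10 and Tnfsf13b are highest at day 21.

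Among the ligands, 6 of the 9 tested were higher at day 3 and 7 at day 21 than at day 0. None was called lower than day 0 by edgeR, with 2 lower at an unadjusted p under 0.05 at day 3 and 0 at day 21, and with 0 lower by DESeq2 at either time. By limma voom 2 were lower at day 3 and 0 at day 21. In other edgeR fits 1 ligand was lower at day 3, Tnfsf13b in the fit of only the 2 groups and Tnfsf10 without day 21 replicate 2. The median log2 fold change of the 9 was 1.96 for day 3 and 1.63 for day 21 against day 0. Over all genes 24.8% were higher and 19.5% lower at day 3 than at day 0, and 17.9% higher and 11.3% lower at day 21. Of the 9 ligands, Ltb, Tnf, Tnfsf8, Tnfsf11 and Tnfsf13 passed the filter only through the injured groups. The ligand counts and medians therefore describe the tested ligands and are no support for a direction.

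The most abundant ligand was Tnfsf12 (TWEAK), the ligand of Tnfrsf12a. It had 6.84, 5.95 and 7.84 FPKM at day 0, 20.3, 20.8 and 21.5 FPKM at day 3, and 14.2, 18.3 and 11.9 FPKM at day 21. All day 3 libraries lay above all day 21 libraries, which lay above all day 0 libraries. Tnfsf12 rose at day 3 against day 0 (log2 fold change 1.55 ± 0.17 SE, edgeR adjusted p = 7.85e-05). At day 21 Tnfsf12 was higher than at day 0 (log2 fold change 0.97 ± 0.17 SE, edgeR adjusted p = 0.00262). It was lower at day 21 than at day 3 (log2 fold change -0.57 ± 0.16 SE, edgeR adjusted p = 0.029), a call lost on leaving out any of 6 libraries, day 0 replicate 1, each day 3 library, and day 21 replicates 1 and 3 (adjusted p 0.0608 to 0.0904, range 0.000378 to 0.0904). Its values are uncertain, because 48.3% of its exon bases overlap the read-through gene Tnfsfm13 in the GENCODE M21 annotation of GRCm38.

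Tnfsf9 (4-1BBL), a co-stimulatory ligand of antigen-presenting cells, had 0.914, 0.877 and 0.600 FPKM at day 0, 8.08, 6.39 and 7.96 FPKM at day 3, and 0.826, 2.12 and 0.682 FPKM at day 21. The day 3 libraries were all above the others, and the day 21 and day 0 libraries overlapped. It rose at day 3 against day 0 (log2 fold change 3.16 ± 0.37 SE, edgeR adjusted p = 0.000125) and was lower at day 21 than at day 3 (log2 fold change -2.70 ± 0.36 SE, edgeR adjusted p = 0.000791). That last value was larger without day 21 replicate 2, the highest of its group (log2 fold change -3.35, adjusted p = 4.35e-06, range 8.91e-11 to 0.00752). At day 21 it was not called against day 0 (log2 fold change 0.46 ± 0.40 SE, edgeR adjusted p = 0.435). Of its exon bases 14.9% overlap another gene.

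Tnfsf8 (CD30 ligand) had 0.164, 0.117 and 0.0149 FPKM at day 0, 1.26, 1.39 and 1.51 FPKM at day 3, and 0.367, 0.397 and 0.588 FPKM at day 21. The 3 groups did not overlap, and day 0 replicate 3 lay far under the other 2 of its group. Tnfsf8 rose at day 3 against day 0 (log2 fold change 3.69 ± 0.45 SE, edgeR adjusted p = 0.000171). At day 21 Tnfsf8 was higher than at day 0 (log2 fold change 1.99 ± 0.48 SE, edgeR adjusted p = 0.0141). It was lower than at day 3 (log2 fold change -1.69 ± 0.39 SE, edgeR adjusted p = 0.0116). Without day 0 replicate 1, the highest of the day 0 libraries, the changes against day 0 were larger at day 3 (log2 fold change 4.32, adjusted p = 0.000562, range 4.15e-15 to 0.0014) and at day 21 (log2 fold change 2.66, adjusted p = 0.0139, range 0.00019 to 0.0517). In a fit of only the 2 groups the day 21 call was lost (log2 fold change 2.01, adjusted p = 0.0517, range 0.00019 to 0.0517).

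A pair of ligands was higher at day 21 than at day 3. Tnfsf10 (TRAIL), which can trigger apoptosis, had 0.848, 0.668 and 0.867 FPKM at day 0, 0.622, 0.676 and 0.553 FPKM at day 3, and 1.38, 1.12 and 1.42 FPKM at day 21. All day 21 libraries were above all others, while day 3 and day 0 overlapped. Tnfsf10 was higher at day 21 than at day 3 (log2 fold change 1.01 ± 0.18 SE, edgeR adjusted p = 0.00312), and higher than at day 0 (log2 fold change 0.60 ± 0.17 SE, edgeR adjusted p = 0.0292), the last a call lost on leaving out any of 6 libraries, the 3 of day 0, day 3 replicate 1, and day 21 replicates 1 and 3 (adjusted p 0.0511 to 0.106, range 0.00225 to 0.106). At day 3 it was not called against day 0 (log2 fold change -0.42 ± 0.18 SE, edgeR adjusted p = 0.0861), but it was called lower without day 21 replicate 2 (log2 fold change -0.42, adjusted p = 0.0352, range 0.0267 to 0.235) and by limma voom.

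Tnfsf13b (BAFF), a survival factor of B cells, had 3.63, 3.48 and 4.82 FPKM at day 0, 2.40, 3.18 and 2.45 FPKM at day 3, and 3.82, 5.25 and 6.69 FPKM at day 21. The day 21 libraries lay above the day 3 libraries and overlapped day 0, and the day 3 libraries lay below day 0. It was higher at day 21 than at day 3 (log2 fold change 0.89 ± 0.25 SE, edgeR adjusted p = 0.0287), a call lost without day 3 replicate 1 or 3 or day 21 replicate 3 (adjusted p 0.0891 to 0.101, range 0.015 to 0.101). Neither time was called against day 0, with log2 fold changes of -0.62 ± 0.25 SE with edgeR adjusted p = 0.0765 at day 3 and 0.27 ± 0.24 SE with edgeR adjusted p = 0.444 at day 21. At day 3 it was called lower by limma voom and in the 2-group fit.

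The other tested ligands stayed under 1 FPKM on average. Tnf, the founding cytokine of the family, had 0.0273, 0 and 0.0932 FPKM at day 0, 0.571, 0.568 and 0.528 FPKM at day 3, and 0.354, 0.248 and 0.367 FPKM at day 21, on 7 counts in all at day 0, 83 at day 3 and 44 at day 21. The groups did not overlap. Tnf rose at day 3 against day 0 (log2 fold change 3.67 ± 0.55 SE, edgeR adjusted p = 0.000569). At day 21 Tnf was higher than at day 0 (log2 fold change 2.82 ± 0.59 SE, edgeR adjusted p = 0.00688). These fitted changes rest on few day 0 counts, and they were larger without day 0 replicate 3, the highest of the day 0 libraries, at day 3 (log2 fold change 4.87, adjusted p = 0.000385, range 2.08e-07 to 0.00531) and at day 21 (log2 fold change 4.02, adjusted p = 0.0034, range 0.000245 to 0.0352). Tnfsf11 (RANKL), known from bone as the inducer of osteoclasts, had no count at day 0, 59 counts at day 3 and 28 at day 21. It was at least 23.1-fold higher at day 3 and at least 12-fold higher at day 21 than a floor of 3 counts over the day 0 group. Such bounds cover counting error only. No p is given against day 0, since the gene had no count there and entered the test through the injured groups. Ltb, Tnf, Tnfrsf9, Tnfrsf14, Tnfsf8 and Tnfsf13 also entered through the injured groups alone. Their p-values against day 0 share this limit and are no support for a direction of the family.

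Tnfsf13 (APRIL), a further B cell factor, averaged 0.182 ± 0.0473 FPKM at day 0, 0.727 ± 0.258 FPKM at day 3 and 0.633 ± 0.104 FPKM at day 21. It rose at day 3 against day 0 (log2 fold change 1.96 ± 0.36 SE, edgeR adjusted p = 0.00179). At day 21 Tnfsf13 was higher than at day 0 (log2 fold change 1.69 ± 0.36 SE, edgeR adjusted p = 0.00809), but 60% of its exon bases overlap Tnfsf13os and Tnfsfm13, so its values are uncertain. The antisense RNA Tnfsf13os was not called at either time against day 0, with log2 fold changes of 1.15 ± 0.57 SE with edgeR adjusted p = 0.134 at day 3 and 1.04 ± 0.58 SE with edgeR adjusted p = 0.213 at day 21. Ltb, the membrane anchor of lymphotoxin, averaged 0.0932 ± 0.0455 FPKM at day 0, 0.170 ± 0.0405 FPKM at day 3 and 0.330 ± 0.171 FPKM at day 21 and was higher at day 21 than at day 0 (log2 fold change 1.63 ± 0.50 SE, edgeR adjusted p = 0.0367). The Ltb libraries of the 2 groups overlapped, and the call was lost on leaving out any of 6 libraries, day 0 replicates 2 and 3, each day 3 library and day 21 replicate 1 (adjusted p 0.0545 to 0.129, range 0.00985 to 0.129).

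The 8 ligands not tested had few or no counts. Tnfsf14 (LIGHT), a ligand of Ltbr and Tnfrsf14, had 2 counts at day 0, 29 at day 3 and 16 at day 21. Its ratio to day 0 was 17 at day 3 (95% counting interval 4.3 to 147) and 10.3 at day 21 (2.42 to 92.3). Fasl, the death ligand of cytotoxic lymphocytes, had no count at day 0 and 11 counts at each later time, at least 4.3-fold higher at day 3 and at least 4.72-fold higher at day 21 than the floor. Lta had 18, 17 and 16 counts and Cd70 12, 7 and 6 at day 0, day 3 and day 21. Tnfsf4, Tnfsf15 and Tnfsf18 had 0 to 3 counts in any group, and Cd40lg, the T cell ligand of Cd40, had none in the 9 libraries.

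Of the 20 receptors tested, 15 were higher and 3 lower at day 3 than at day 0. At day 21, 8 were higher and 2 lower than at day 0, and 1 was higher and 11 were lower than at day 3. Over all genes 24.8% were higher and 19.5% lower at day 3 than at day 0, and 17.9% higher and 11.3% lower at day 21. Against day 3, 11.7% of all genes were higher and 16.1% lower at day 21. The shares of receptors lower than day 0, 15% and 10%, were near those of all genes. The receptors' median log2 fold change was 1.79 for day 3 and 0.75 for day 21 against day 0. Tnfrsf9, Tnfrsf14 and Tnfrsf26 passed the filter only through the injured groups.

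The receptor with the highest level at day 3 was Tnfrsf12a (Fn14), which binds Tnfsf12. It had 19.0, 12 and 11.7 FPKM at day 0, 57.4, 56.3 and 56.5 FPKM at day 3, and 18.2, 37.3 and 17.9 FPKM at day 21. The day 3 libraries were close together and above all others, and day 21 overlapped day 0 with replicate 2 well above its group. Tnfrsf12a rose at day 3 against day 0 (log2 fold change 1.94 ± 0.29 SE, edgeR adjusted p = 0.00054) and was lower at day 21 than at day 3 (log2 fold change -1.29 ± 0.28 SE, edgeR adjusted p = 0.00928). At day 21 it was not called against day 0 (log2 fold change 0.65 ± 0.28 SE, edgeR adjusted p = 0.119), nor in any fit that left out 1 library, while limma voom with sample weights called it (log2 fold change 0.43, adjusted p = 0.0188, range 0.0188 to 0.308).

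Tnfrsf1b (TNFR2), a TNF receptor without a death domain that is found on myeloid cells among others, had 2.07, 1.93 and 2.06 FPKM at day 0, 14.1, 14.9 and 13.6 FPKM at day 3, and 6.43, 6.04 and 5.95 FPKM at day 21. No groups overlapped and the spread within each was small. It rose at day 3 against day 0 (log2 fold change 2.76 ± 0.11 SE, edgeR adjusted p = 1.74e-07). At day 21 Tnfrsf1b was higher than at day 0 (log2 fold change 1.48 ± 0.10 SE, edgeR adjusted p = 1.32e-05). It was lower than at day 3 (log2 fold change -1.28 ± 0.10 SE, edgeR adjusted p = 4.41e-05). Ltbr, the lymphotoxin beta receptor, had 6.07, 6.06 and 6.39 FPKM at day 0, 26.6, 29.3 and 28.3 FPKM at day 3, and 12.5, 18.8 and 11.3 FPKM at day 21. Its groups did not overlap either. Ltbr rose at day 3 against day 0 (log2 fold change 2.13 ± 0.18 SE, edgeR adjusted p = 1.38e-05). At day 21 Ltbr was higher than at day 0 (log2 fold change 1.07 ± 0.17 SE, edgeR adjusted p = 0.00184). It was lower than at day 3 (log2 fold change -1.06 ± 0.17 SE, edgeR adjusted p = 0.00206).

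Tnfrsf9 (4-1BB), the receptor of Tnfsf9 known from activated T and NK cells, had the highest fitted fold change at day 3 of the members with counts at day 0, and it passed the filter through its day 3 libraries alone. It had 0.0195, 0.0297 and 0.0265 FPKM at day 0, 0.988, 1.34 and 1.19 FPKM at day 3, and 0.0445, 0.0322 and 0.0164 FPKM at day 21, on 6 counts at day 0, 247 at day 3 and 6 at day 21. The day 3 libraries stood far above all others, and day 21 overlapped day 0. Tnfrsf9 rose at day 3 against day 0 (log2 fold change 5.44 ± 0.32 SE, edgeR adjusted p = 1.6e-06) and was lower at day 21 than at day 3 (log2 fold change -5.22 ± 0.32 SE, edgeR adjusted p = 1.24e-05). Both p-values are limited, since Tnfrsf9 entered the test only through day 3, the group where it is high. At day 21 it was not called against day 0 (log2 fold change 0.22 ± 0.52 SE, edgeR adjusted p = 0.853). The 10 T cell markers summed to 0.392 to 0.452 FPKM at day 0, with Cd3d, Cd3e, Cd3g and Cd8b1 at 0, to 0.759 to 1.33 at day 3 and to 2.75 to 3.93 at day 21. The 8 NK cell markers summed to 0 to 0.0355 FPKM at day 0, with 6 of them at 0, to 0.119 to 0.201 at day 3, with Eomes, Klre1, Ncr1 and Prf1 at 0, and to 0.304 to 0.903 at day 21. Both sums were highest at day 21, and the part of T and NK cells in the Tnfrsf9 values was not tested.

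Promoter sequence is shown for the members in which the NF-kB consensus was found, since NF-kB is the factor that many of these receptors switch on. Windows of 300 bases, from 250 before to 50 after the start of a RefSeq transcript (GRCm38.p6), were matched by symbol for 30 of the 41 members. The consensus was found on either strand in 3 of these 30, Tnfrsf9, Tnfrsf8 and Ltb, against 5.14% of 27025 genes, and in 0 of the 10 with a window that were higher than day 0 at both times. Tnfrsf9 (the second of its 2 starts, chr4:150927749-150928048, plus strand) holds 2 overlapping matches, which begin 43 and 42 bases before the start. Tnfrsf8 (chr4:145315115-145315414, minus strand) holds 1 match that begins 168 bases before its start, and Ltb (chr17:35194257-35194556, plus strand) 1 that begins 87 bases before. A letter match is a description and not a binding site. In the 5′ to 3′ sequences below, written along the gene, capitals mark the matches, which read as the consensus on the gene's own strand in Tnfrsf9 and on the opposite strand in the other two.
Tnfrsf9: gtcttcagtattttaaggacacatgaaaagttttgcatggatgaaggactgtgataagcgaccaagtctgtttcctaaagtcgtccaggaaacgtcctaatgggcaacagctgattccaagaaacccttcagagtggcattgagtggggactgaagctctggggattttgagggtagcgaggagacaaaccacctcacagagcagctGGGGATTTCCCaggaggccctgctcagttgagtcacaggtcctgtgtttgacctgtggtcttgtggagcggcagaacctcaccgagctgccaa
Tnfrsf8: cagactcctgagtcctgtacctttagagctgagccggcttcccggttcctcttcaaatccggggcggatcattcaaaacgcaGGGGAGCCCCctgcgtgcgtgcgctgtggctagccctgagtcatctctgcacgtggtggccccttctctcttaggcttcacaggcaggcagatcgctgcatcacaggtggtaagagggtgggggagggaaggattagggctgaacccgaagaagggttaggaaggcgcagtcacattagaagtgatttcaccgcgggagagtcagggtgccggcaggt
Ltb: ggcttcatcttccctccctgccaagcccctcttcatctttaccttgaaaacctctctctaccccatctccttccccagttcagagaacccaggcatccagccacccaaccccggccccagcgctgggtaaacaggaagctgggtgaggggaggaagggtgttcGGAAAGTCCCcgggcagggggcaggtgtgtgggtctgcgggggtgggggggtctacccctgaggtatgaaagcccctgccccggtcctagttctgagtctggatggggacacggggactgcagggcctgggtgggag
A search for the AP-1 site TGANTCA on both strands, which does not overlap those matches, was added after the values were seen. It found the site in 6 of the 30 members, Fas, Tnfrsf8, Tnfrsf9, Tnfsf13, Tnfsf13b and Tnfsf14, and in 8.97% of all genes.

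Of the TRAIL receptors, Tnfrsf10b and Tnfrsf23 were higher at day 3 than at either other time. Tnfrsf10b, the mouse death receptor for Tnfsf10, had 0.263, 0.320 and 0.519 FPKM at day 0, 2.00, 2.02 and 2.16 FPKM at day 3, and 0.500, 0.369 and 0.618 FPKM at day 21. All day 3 libraries were above the rest, and day 21 overlapped day 0. Tnfrsf10b rose at day 3 against day 0 (log2 fold change 2.44 ± 0.28 SE, edgeR adjusted p = 0.000124). At day 21 Tnfrsf10b was not called against day 0 (log2 fold change 0.32 ± 0.31 SE, edgeR adjusted p = 0.479) and was lower than at day 3 (log2 fold change -2.12 ± 0.28 SE, edgeR adjusted p = 0.000761). Tnfrsf23, a mouse decoy receptor for the same ligand, had 0.356, 0.343 and 0.575 FPKM at day 0, 3.26, 3.35 and 3.42 FPKM at day 3, and 0.571, 0.758 and 0.740 FPKM at day 21. It showed the same order of groups. Tnfrsf23 rose at day 3 against day 0 (log2 fold change 2.92 ± 0.22 SE, edgeR adjusted p = 7.54e-06) and was lower at day 21 than at day 3 (log2 fold change -2.35 ± 0.21 SE, edgeR adjusted p = 9.68e-05). Day 21 was not called against day 0 (log2 fold change 0.57 ± 0.23 SE, edgeR adjusted p = 0.0899) except without day 0 replicate 3 (log2 fold change 0.86, adjusted p = 0.016, range 0.016 to 0.243).

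Its neighbour and near relative Tnfrsf22, also a decoy, averaged 0.714 ± 0.113 FPKM at day 0, 0.876 ± 0.0515 FPKM at day 3 and 0.465 ± 0.134 FPKM at day 21. It was not called at day 3 against day 0 (log2 fold change 0.24 ± 0.22 SE, edgeR adjusted p = 0.413) and was lower at day 21 than at day 3 (log2 fold change -0.99 ± 0.23 SE, edgeR adjusted p = 0.0126). The lower level at day 21 than at day 0 (log2 fold change -0.75 ± 0.23 SE, edgeR adjusted p = 0.0385) was a call lost on leaving out any of 6 libraries, day 0 replicates 2 and 3, each day 3 library and day 21 replicate 1 (adjusted p 0.0604 to 0.123, range 0.00161 to 0.123). Values of this pair are uncertain, because 27.4% of the 50-base words of Tnfrsf22 and 19.3% of those of Tnfrsf23 occur in another gene as well, for each mostly in the other of the pair. Tnfrsf26, the third receptor of this gene cluster on chromosome 7, had 0 counts at day 0, 126 at day 3 and 31 at day 21. It was at least 49.3-fold higher at day 3 and at least 13.3-fold higher at day 21 than the floor at day 0, again with no p. Tnfrsf26 was lower at day 21 than at day 3 (log2 fold change -1.94 ± 0.30 SE, edgeR adjusted p = 0.00367).

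Fas, the classical death receptor, had 1.62, 0.916 and 1.07 FPKM at day 0, 5.48, 4.83 and 4.5 FPKM at day 3, and 3.66, 5.84 and 3.26 FPKM at day 21. Both injured groups lay above day 0 and overlapped each other, with day 21 replicate 2 the highest library of all. Fas rose at day 3 against day 0 (log2 fold change 1.97 ± 0.26 SE, edgeR adjusted p = 0.00029). At day 21 Fas was higher than at day 0 (log2 fold change 1.68 ± 0.26 SE, edgeR adjusted p = 0.00172). Day 21 was not called against day 3 (log2 fold change -0.29 ± 0.25 SE, edgeR adjusted p = 0.418) but it was called lower without day 21 replicate 2 (log2 fold change -0.57, adjusted p = 0.0385, range 0.00947 to 0.725) and by limma voom. Tnfrsf25 (DR3), a further death receptor, averaged 0.183 ± 0.0779 FPKM at day 0, 0.611 ± 0.216 FPKM at day 3 and 0.384 ± 0.130 FPKM at day 21 and rose at day 3 against day 0 (log2 fold change 1.64 ± 0.38 SE, edgeR adjusted p = 0.00721).

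**Figure D2:**
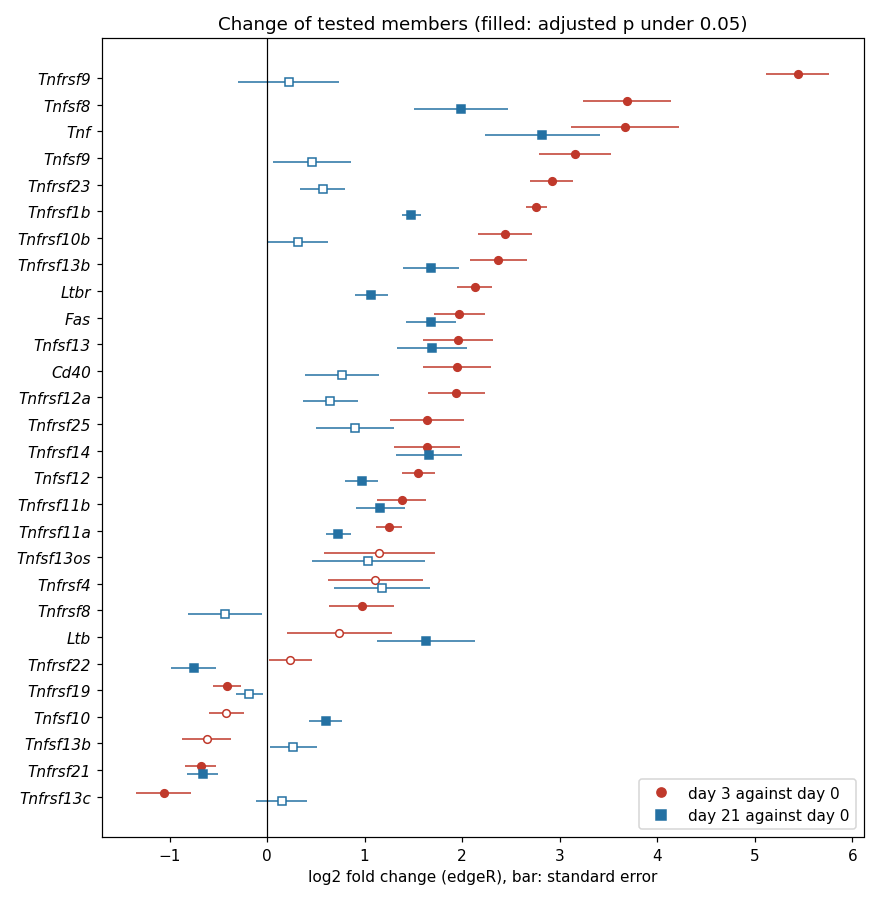
Log2 fold changes (horizontal axis, bars ± 1 SE) of 28 tested members for day 3 and day 21 against day 0, filled where edgeR's adjusted p is under 0.05. Tnfsf11 and Tnfrsf26, with 0 counts at day 0, are not drawn, and Tnfrsf9 has the highest day 3 value, 5.44, beside 0.22 at day 21.

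Of the 3 receptors that fell at day 3, Tnfrsf21 and Tnfrsf19 were among the most abundant members at day 0. Tnfrsf21 (DR6), a death domain receptor of neurons and oligodendrocytes, had 46.2, 48.9 and 47.9 FPKM at day 0, 30.7, 30.6 and 31.3 FPKM at day 3, and 36.1, 24.6 and 37.6 FPKM at day 21. Both injured groups lay below day 0 and overlapped each other, with day 21 replicate 2 the lowest library of all. Tnfrsf21 fell at day 3 (log2 fold change -0.68 ± 0.16 SE, edgeR adjusted p = 0.00825) and at day 21 (log2 fold change -0.66 ± 0.16 SE, edgeR adjusted p = 0.0153) against day 0, and the day 21 call was lost without day 0 replicate 2 or 3 (adjusted p 0.0513 to 0.0533, range 7.65e-05 to 0.0618). Day 21 was not called against day 3 (log2 fold change 0.02 ± 0.16 SE, edgeR adjusted p = 0.95), but it was called higher without day 21 replicate 2 (log2 fold change 0.20, adjusted p = 0.0265, range 0.0265 to 0.994) and by limma voom. All 10 neuronal markers were called lower at day 3 and 9 at day 21 than at day 0, as were 6 of 8 oligodendrocyte markers at day 3 and 1 at day 21, and their part in the Tnfrsf21 values was not tested.

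Tnfrsf19 (TROY), which can take the place of the p75 receptor in the Nogo receptor complex that inhibits axon growth, had 11.9, 10.8 and 9.99 FPKM at day 0, 8.21, 8.27 and 9.08 FPKM at day 3, and 11.1, 8.69 and 11.6 FPKM at day 21. Day 3 lay below day 0, and day 21 overlapped both. Tnfrsf19 fell at day 3 against day 0 (log2 fold change -0.41 ± 0.14 SE, edgeR adjusted p = 0.0376), a call lost on leaving out any of the 6 libraries compared (adjusted p 0.0574 to 0.117, range 0.000632 to 0.117). At day 21 it was not called against day 0 (log2 fold change -0.18 ± 0.14 SE, edgeR adjusted p = 0.371). Day 21 was not called against day 3 either (log2 fold change 0.23 ± 0.14 SE, edgeR adjusted p = 0.253), but it was called higher without day 21 replicate 2 (log2 fold change 0.36, adjusted p = 0.00595, range 0.00288 to 0.526) and by limma voom.

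The receptors of the RANKL axis were higher at both times. Tnfrsf11a (RANK) had 0.771, 0.689 and 0.789 FPKM at day 0, 1.75, 2.00 and 1.80 FPKM at day 3, and 1.27, 1.39 and 1.42 FPKM at day 21. The groups did not overlap. It rose at day 3 against day 0 (log2 fold change 1.25 ± 0.13 SE, edgeR adjusted p = 5.06e-05). At day 21 Tnfrsf11a was higher than at day 0 (log2 fold change 0.73 ± 0.13 SE, edgeR adjusted p = 0.0028). It was lower at day 21 than at day 3 (log2 fold change -0.51 ± 0.12 SE, edgeR adjusted p = 0.0145), a call lost without day 3 replicate 2 or day 21 replicate 1 (adjusted p 0.053 to 0.0689, range 0.00174 to 0.0689). Tnfrsf11b (osteoprotegerin), a secreted decoy that captures RANKL and also binds TRAIL, had 0.827, 1.13 and 0.927 FPKM at day 0, 2.87, 2.71 and 2.14 FPKM at day 3, and 2.70, 1.63 and 2.61 FPKM at day 21. Both injured groups lay above day 0 and overlapped each other. Tnfrsf11b rose at day 3 against day 0 (log2 fold change 1.38 ± 0.25 SE, edgeR adjusted p = 0.00162). At day 21 Tnfrsf11b was higher than at day 0 (log2 fold change 1.16 ± 0.25 SE, edgeR adjusted p = 0.00777).

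Among receptors for B cell factors, Tnfrsf13b (TACI) had 0.335, 0.429 and 0.156 FPKM at day 0, 1.51, 1.57 and 1.86 FPKM at day 3, and 1.13, 1.0 and 1.08 FPKM at day 21. The groups did not overlap. Tnfrsf13b rose at day 3 against day 0 (log2 fold change 2.37 ± 0.29 SE, edgeR adjusted p = 0.000166). At day 21 Tnfrsf13b was higher than at day 0 (log2 fold change 1.68 ± 0.29 SE, edgeR adjusted p = 0.00282). Day 21 against day 3 was not called (log2 fold change -0.69 ± 0.26 SE, edgeR adjusted p = 0.0844), but it was called lower without day 0 replicate 3 (log2 fold change -0.69, adjusted p = 0.0238, range 0.0238 to 0.23), by DESeq2, by limma voom and in the 2-group fit. Tnfrsf13c (the BAFF receptor) averaged 0.518 ± 0.111 FPKM at day 0, 0.256 ± 0.0815 FPKM at day 3 and 0.628 ± 0.0553 FPKM at day 21. It fell at day 3 against day 0 (log2 fold change -1.06 ± 0.28 SE, edgeR adjusted p = 0.0123) and was higher at day 21 than at day 3 (log2 fold change 1.20 ± 0.28 SE, edgeR adjusted p = 0.0119). Tnfrsf17 (BCMA), the plasma cell receptor, had 4 counts at day 0, 4 at day 3 and 0 at day 21 and was not tested. The 10 B and plasma cell markers summed to 0.486 to 0.877 FPKM at day 0, with Blk at 0, to 1.44 to 1.5 at day 3 and to 1.51 to 2.62 at day 21, and their part in these values was not tested.

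Tnfrsf14 (HVEM), which binds LIGHT and lymphotoxin alpha, had 0.358, 0.351 and 0.244 FPKM at day 0, 1.07, 0.720 and 1.36 FPKM at day 3, and 1.44, 1.01 and 0.860 FPKM at day 21. Both injured groups lay above day 0 and overlapped each other. It rose at day 3 against day 0 (log2 fold change 1.64 ± 0.34 SE, edgeR adjusted p = 0.00398). At day 21 Tnfrsf14 was higher than at day 0 (log2 fold change 1.66 ± 0.34 SE, edgeR adjusted p = 0.00668). Cd40, the receptor through which T cells activate antigen-presenting cells, averaged 0.104 ± 0.0306 FPKM at day 0, 0.426 ± 0.100 FPKM at day 3 and 0.197 ± 0.0732 FPKM at day 21 and rose at day 3 against day 0 (log2 fold change 1.95 ± 0.35 SE, edgeR adjusted p = 0.00182). Its lower level at day 21 than at day 3 (log2 fold change -1.17 ± 0.34 SE, edgeR adjusted p = 0.0301) was a call lost without day 0 replicate 1, day 3 replicate 2 or 3 or day 21 replicate 3 (adjusted p 0.0501 to 0.107, range 0.0206 to 0.107). Tnfrsf8 (CD30) averaged 0.109 ± 0.0125 FPKM at day 0, 0.221 ± 0.0432 FPKM at day 3 and 0.0869 ± 0.0374 FPKM at day 21. Tnfrsf8 was higher at day 3 than at day 0 (log2 fold change 0.97 ± 0.33 SE, edgeR adjusted p = 0.0383), a call lost on leaving out any of 7 libraries, all but day 21 replicates 2 and 3 (adjusted p 0.0559 to 0.14, range 0.0112 to 0.14). It was lower at day 21 than at day 3 (log2 fold change -1.40 ± 0.35 SE, edgeR adjusted p = 0.0171), which was lost without day 3 replicate 3 (log2 fold change -1.24, adjusted p = 0.0696, range 0.00745 to 0.0696).

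Tnfrsf4 (OX40), a co-stimulatory receptor of T cells, averaged 0.229 ± 0.0945 FPKM at day 0, 0.524 ± 0.247 FPKM at day 3 and 0.582 ± 0.243 FPKM at day 21 and was not called in any of the 3 comparisons. Against day 0 its log2 fold changes were 1.11 ± 0.49 SE with edgeR adjusted p = 0.0983 at day 3 and 1.18 ± 0.49 SE with edgeR adjusted p = 0.106 at day 21, and without day 3 replicate 1 the day 3 value was called (log2 fold change 1.42, adjusted p = 0.0498, range 0.0421 to 0.349). Tnfrsf18 (GITR) had 0, 8 and 7 counts at day 0, day 3 and day 21, and 27.2% of its exon bases overlap another gene. Cd27 had 2, 4 and 12 counts, a ratio of 7.72 for day 21 to day 0 (95% counting interval 1.72 to 71).

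Ligands and receptors were next set side by side as 27 known pairs, in 14 of which both genes were tested. At day 3 both partners were higher than at day 0 in 7 pairs: Tnf with Tnfrsf1b, Tnfsf8 with Tnfrsf8, Tnfsf9 with Tnfrsf9, Tnfsf11 with Tnfrsf11a and with Tnfrsf11b, Tnfsf12 with Tnfrsf12a, and Tnfsf13 with Tnfrsf13b. The Tnfsf11 pairs rest on a ligand with no count at day 0. Tnf, Tnfsf8, Tnfrsf9 and Tnfsf13 also passed the filter only through the injured groups. Of the 7 pairs, only Tnfsf12 with Tnfrsf12a holds no member that entered the test in that way. In 13 further pairs the receptor was higher and the ligand not called or not tested. At day 21 both partners were higher than at day 0 in 6 pairs. These were Tnf with Tnfrsf1b, Ltb with Ltbr, Tnfsf10 with Tnfrsf11b, Tnfsf11 with Tnfrsf11a and with Tnfrsf11b, and Tnfsf13 with Tnfrsf13b. Only the Tnfsf10 pair holds no member that entered the test through the injured groups alone. The Tnfsf10 call was itself lost in 9 of 15 alternatives. In 1 pair the day 21 calls against day 0 were opposite, with Tnfsf10 higher and Tnfrsf22 lower. Between the injured times 3 of the 4 TRAIL pairs held partners called in opposite directions, with Tnfsf10 higher and Tnfrsf10b, Tnfrsf22 and Tnfrsf23 lower at day 21 than at day 3. Levels within a pair were unequal, since at day 3 Tnf averaged 0.556 FPKM beside 14.2 FPKM of Tnfrsf1b, and Tnfsf11 0.536 FPKM beside 1.85 FPKM of Tnfrsf11a. Of the 14 pairs with both genes tested, the receptor had the higher mean at day 3 in 10 and the ligand in 4. Those 4 were Tnfsf9 at 7.48 FPKM with Tnfrsf9 at 1.17, Tnfsf8 at 1.39 with Tnfrsf8 at 0.221, and Tnfsf13b at 2.68 with Tnfrsf13b at 1.65 and with Tnfrsf13c at 0.256. The pairs share members, so their counts are not independent. Of all single genes tested, 24.8% were called higher at day 3 and 17.9% at day 21 than at day 0. The counts of pairs against day 0 are a description and no support for a joint direction.

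Downstream and accessory genes were read from 4 lists with 50 genes, of which all but Edar, 49 genes, were tested. At day 3, 32 (65.3%) were higher and 2 (4.08%) lower than at day 0, beside 24.8% and 19.5% of all genes tested, with a median log2 fold change of 0.76. At day 21, 17 (34.7%) were higher and 1 (2.04%) lower than at day 0, beside 17.9% and 11.3%, with a median of 0.37. Against day 3, 20 (40.8%, beside 16.1% of all genes) were lower at day 21 and none was called higher by edgeR, with a median of -0.42, 4 higher at an unadjusted p under 0.05, 1 higher by DESeq2 and 4 by limma voom. Without day 21 replicate 2 the counts were 36 higher and 4 lower at day 3 and 25 higher and 4 lower at day 21 against day 0, and 4 higher and 25 lower at day 21 against day 3. Calls over all genes were also more frequent in that fit, at the shares given for it above.

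**Figure D3:**
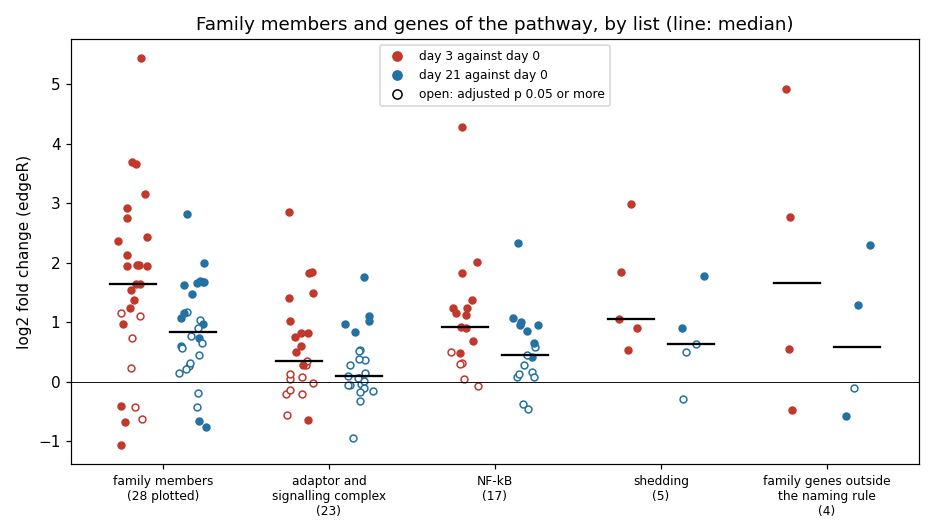
Log2 fold changes of tested genes (points) for day 3 and day 21 against day 0, in the members with counts at day 0 and in the 4 lists of downstream and accessory genes, with open points where edgeR's adjusted p is not under 0.05 and a line at the median of the points drawn. The members reach 5.44 at day 3 (Tnfrsf9) and the adaptor list 2.86 (Casp8).

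In the list of NF-kB subunits and regulators, 12 of 17 genes (70.6%) rose at day 3 and 8 (47.1%) at day 21 against day 0, beside 24.8% and 17.9% of all genes, and 8 were lower at day 21 than at day 3, beside 16.1% of all genes. Bcl3, a nuclear inhibitor-like partner of p50 and p52, averaged 11.2 ± 0.943 FPKM at day 3 and 0.556 ± 0.170 FPKM at day 0 (log2 fold change 4.29 ± 0.23, SE, edgeR adjusted p = 1.1e-06). Nfkb2, the precursor of p52 in the non-canonical branch that Ltbr, RANK and Fn14 use, averaged 6.18 ± 0.170 FPKM at day 3 and 1.67 ± 0.270 FPKM at day 0 (log2 fold change 1.83 ± 0.14, SE, edgeR adjusted p = 9.55e-06). Nfkbia, the inhibitor that NF-kB itself induces, averaged 50.3 ± 0.537 FPKM at day 3 and 18.7 ± 1.55 FPKM at day 0 (log2 fold change 1.37 ± 0.12, SE, edgeR adjusted p = 1.58e-05). All 3 were lower at day 21 than at day 3, Bcl3 with a log2 fold change of -1.95 ± 0.20, Nfkbia of -1.29 ± 0.12 and Nfkb2 of -0.89 ± 0.14 (SE, edgeR adjusted p = 0.000199, 9.27e-05 and 0.00183 in that order).

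In the list of adaptors and signalling complexes, 12 of 23 genes (52.2%) rose and 1 (4.35%) fell at day 3, and 5 (21.7%) rose at day 21, against day 0. Over all genes 24.8% rose and 19.5% fell at day 3 and 17.9% rose at day 21, so that the list's day 21 share was near that of all genes. Casp8, the caspase that death receptors recruit, averaged 5.53 ± 0.160 FPKM at day 3 and 0.742 ± 0.201 FPKM at day 0 (log2 fold change 2.86 ± 0.21, SE, edgeR adjusted p = 7.12e-06). The TRAF family member Traf4 (log2 fold change 1.03 ± 0.15, SE, edgeR adjusted p = 0.000432) and Otulin, which removes linear ubiquitin chains (0.82 ± 0.22, SE, edgeR adjusted p = 0.0151), rose as well. Cyld, a deubiquitinase that restrains the pathway, fell to 5.35 ± 0.173 FPKM at day 3, against 8.05 ± 0.783 FPKM at day 0 (log2 fold change -0.64 ± 0.15, SE, edgeR adjusted p = 0.00855).

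All 5 genes of ligand shedding rose at day 3 and 2 of them (40%) at day 21 against day 0. Over all genes 24.8% rose at day 3 and 17.9% at day 21. The iRhom gene Rhbdf1 averaged 5.86 ± 0.631 FPKM at day 3 and 1.57 ± 0.0806 FPKM at day 0 (log2 fold change 1.85 ± 0.12, SE, edgeR adjusted p = 2.46e-06). Adam10, a sheddase, averaged 16.9 ± 0.448 FPKM at day 3 and 7.88 ± 1.37 FPKM at day 0 (log2 fold change 1.05 ± 0.20, SE, edgeR adjusted p = 0.00212). Of the family genes whose names do not follow the Tnfrsf scheme, 4 were tested, and 3 rose and 1 fell at day 3 against day 0. In that comparison 24.8% of all genes rose and 19.5% fell, and lists of 4 or 5 genes are small. The neurotrophin receptor Ngfr (p75) averaged 1.96 ± 0.283 FPKM at day 0, 61.6 ± 1.77 FPKM at day 3 and 5.19 ± 0.661 FPKM at day 21, and was lower at day 21 than at day 3 (log2 fold change -3.64 ± 0.16, SE, edgeR adjusted p = 2.22e-06). The one that fell was the receptor Relt, at 6.53 ± 0.135 FPKM at day 3 and 8.78 ± 0.469 FPKM at day 0 (log2 fold change -0.48 ± 0.09, SE, edgeR adjusted p = 0.00249). Relt was also lower at day 21 than at day 0 (log2 fold change -0.58 ± 0.09, SE, edgeR adjusted p = 0.00184).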

How the data were processed

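RNA of mouse spinal cord was sequenced as paired-end, poly-A selected TruSeq libraries, per the labels' protocols. HISAT2 and StringTie, with no version, and GRCh38, a human build, appear in the submitters' processing notes, while the table's loci match mouse GRCm38. Per the file headers, the authors deposited 1 count and 1 FPKM column per library. The counts are whole and not normalized, and the deposited FPKM values equal count over gene length and library total within 0.00117% for 12001 genes. Whether counting used strand is not given here, so sense and antisense reads cannot be told apart. Large overlaps of exons and large shares of 50-base words are stated at the members concerned, whose values are uncertain. Smaller ones are not marked there. Among these are 6.21% of the 50-base words of Tnfrsf10b and 4.51% of those of Tnfrsf14. Exon overlaps of 5.54% in Cd27 and 3.33% in Tnfrsf26 are others.

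Counts were tested with edgeR 4.0.16 (R 4.3.3), by robust quasi-likelihood fits to all 9 libraries after its default filter and TMM scaling. The residual degrees of freedom were 6 and the common coefficient of biological variation 0.205. The SE is the log2 fold change's size over the square root of F. Folds against groups with no count use a floor of 3 counts, and ratios on 1 to 3 counts an exact 95% binomial interval. The script was tested on simulated data for day 3 against day 0. It recovered 12.1% of 1.5-fold, 55.2% of 2-fold and 100% of 4-fold changes, and 1.83% of its calls were false. A value not called is therefore no evidence that a gene did not change. The simulation held only 66, 67 and 62 genes changed by 1.5-fold, 2-fold and 4-fold among 16226 tested. It gave every gene the same coefficient of variation and had no library that stood apart. The recovered and false shares may therefore not hold for the real libraries. The members and lists were chosen with earlier results of these data known. Members called at least once with a highest group mean of at least 1 FPKM get every library's value, the others ranges, means or counts, and pathway genes up to 3 per list, direction and comparison at 5 FPKM or more in the higher group. The alternatives were median-of-ratios scaling, DESeq2 1.42.0, no filter, limma 3.58.1 voom with sample weights, 2-group fits, a replicate block and each library left out. Promoter sequences are from RefSeq (GRCm38.p6), and 1 receptor is not reported here.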

Additional observations from a re-analysis of the deposited data

Results flagged for a closer look

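Of the tested members, 5 had log2 fold changes of opposite sign against day 0 at day 3 and day 21, with the direct comparison of day 21 with day 3 called by edgeR. How many of all genes meet the same rule was not counted. Tnfsf10 was below day 0 at day 3 (log2 fold change -0.42) and above it at day 21 (0.60), a difference of 1.01 for day 21 against day 3. Tnfsf13b had -0.62 at day 3 and 0.27 at day 21, a difference of 0.89. Tnfrsf13c had -1.06 at day 3 and 0.15 at day 21, a difference of 1.20. The reverse order was seen in Tnfrsf8, with 0.97 at day 3 and -0.43 at day 21 (-1.40), and in Tnfrsf22, with 0.24 at day 3 and -0.75 at day 21 (-0.99). Of these 10 changes against day 0, those of Tnfrsf13c and Tnfrsf8 at day 3 and of Tnfsf10 and Tnfrsf22 at day 21 were called. None of the 5 members was called against day 0 at both times, so none is shown to cross its day 0 level. Of 15 alternatives, 9 lost the call of Tnfrsf8, 9 that of Tnfsf10, 7 that of Tnfrsf22 and 0 that of Tnfrsf13c.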

How the results depend on the processing

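Of 58 member calls in the 3 comparisons, 46 held in all of the 15 alternatives that tested them, 12 were lost in at least 1, and 12 values not called were called in at least 1. Leaving out 1 library at a time, members higher numbered 20 to 21 for day 3 and 13 to 15 for day 21 against day 0, and 2 to 5 for day 21 against day 3, and members lower 2 to 4, 0 to 2 and 11 to 16. Pathway genes higher numbered 26 to 36, 15 to 25 and 0 to 4, and lower 2 to 4, 1 to 4 and 16 to 25. Over all 16716 to 16808 genes tested in those fits, 3504 to 5354, 2262 to 4207 and 1006 to 3941 were higher in the same order. Those lower numbered 2361 to 4891, 1011 to 3748 and 1887 to 4305. With limma voom and sample weights 5 members were lower at day 3 than at day 0 and 5 higher at day 21 than at day 3, and of pathway genes 4 were lower at day 3 and 26 higher and 6 lower at day 21 against day 0, and 4 higher at day 21 than at day 3. Of all 16494 genes, that fit called 5239 lower at day 3 than at day 0. It called 4367 higher and 3956 lower at day 21 against day 0, and 4441 higher at day 21 than at day 3. A fit of only the 2 groups called 10 members higher and 0 lower at day 21 than at day 0, where fewer members (25) were tested, and 4 pathway genes lower at day 3. Of all genes, the 2-group fits called 2108 higher and 801 lower of 15962 at day 21, and 4771 lower of 16156 at day 3, against day 0. Median-of-ratios scaling, DESeq2 and no filter each called 1 pathway gene higher at day 21 than at day 3, and DESeq2 and no filter 2 lower at day 21 than at day 0. Of all genes they called 1997 of 16494, 2205 of 18661 and 1887 of 23736 higher at day 21 than at day 3, in that order. DESeq2 called 2195 of 19581 genes lower at day 21 than at day 0, and no filter 2067 of 23736. Apart from libraries left out, single calls were lost without the filter (Tnfrsf8 at day 3 and Tnfsf10 at day 21 against day 0, Tnfsf12 at day 21 against day 3), by DESeq2 (Tnfrsf8 at day 3) and in the 2-group fits (Tnfsf8, Tnfsf10, Tnfrsf21 and Tnfrsf22 at day 21 against day 0, Cd40 and Tnfsf12 at day 21 against day 3). The cause of these shifts was not tested.

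The libraries were not treated as paired by replicate number. Deviations of same-numbered libraries from their group means correlated at -0.15 to 0.11, and those of differently numbered libraries at -0.22 to 0.23. With 3 libraries per group these values cannot exclude a batch shared by replicate number. With the replicate block members higher numbered 21, 14 and 3 and lower 2, 2 and 12 for day 3 and day 21 against day 0 and day 21 against day 3, and pathway genes higher 30, 15 and 0 and lower 2, 1 and 18. Of all 16494 genes in that fit, 3775, 2516 and 1388 were higher and 2814, 1318 and 2252 lower in the same order. The block ended the calls of Tnfrsf19 at day 3 and Tnfsf10 at day 21 against day 0 and of Cd40 and Tnfsf12 at day 21 against day 3. Members under 1 FPKM rest on few counts, which limits the precision of their changes.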

Other observations

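Members that neighbour each other on a chromosome did not all move together. On chromosome 7 (143607685 to 143685872, GRCm38) Tnfrsf23 rose at day 3 against day 0 and Tnfrsf26 had 126 counts at day 3 and 0 at day 0, while Tnfrsf22 between them had a log2 fold change of 0.24 (edgeR adjusted p = 0.413). On chromosome 17 (57105385 to 57194189) Tnfsf9 rose at day 3, Tnfsf14 had 29 counts at day 3 and 2 at day 0, and Cd70 between them had 7 counts at day 3 and 12 at day 0. In the lymphotoxin cluster of the same chromosome (35194439 to 35205351) Tnf rose at both times, Ltb was called at day 21 alone, and Lta had 18 counts at day 0, 17 at day 3 and 16 at day 21. On chromosome 4 (145213463 to 145315164) both Tnfrsf1b and Tnfrsf8 rose at day 3 against day 0. The 3 genes on chromosome 11 (69682138 to 69695849), Tnfsf12, Tnfsf13 and Tnfsf13os, had positive log2 fold changes at day 3 (1.55, 1.96 and 1.15), of which the last was not called, and they overlap each other or the read-through gene Tnfsfm13. That gene had 1.48, 1.82 and 1.09 FPKM at day 0, 3.84, 3.31 and 3.64 at day 3, and 2.98, 4.27 and 2.87 at day 21.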
